A study of Mus musculus with 2 samples.

Results

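The Hox genes of mouse fibroblasts were examined on 2 single-colour Illumina bead arrays, 1 with RNA from control cells and 1 with RNA from cells on gold nanoparticles (AuNPs) in an electromagnetic field (EMF), called exposed cells here. Members were all probes whose annotated gene symbol is a Hox symbol of the A, B, C or D cluster, which gave 50 probes for 38 genes out of 16593 genes named on the arrays. The series title places the experiment in work on converting cells into dopamine neurons. Both samples are labelled fibroblast; the strain, age, body site and passage of the cells, and the strength and length of the exposure, are not given in the labels. There was no array of AuNPs alone or of EMF alone and no replicate, so the values describe the combined exposure in 1 sample, no test between conditions was possible and no value carries a replicate error. In RNA from a whole culture, fewer cells of a type and less RNA per cell cannot be told apart.

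Hox genes encode homeodomain transcription factors that give cells along the head-to-tail axis and the limb their position. They lie in clusters, and genes of the same number in different clusters, called a paralogue group, descend from one ancestral gene. Low-numbered groups lie at the 3′ end of a cluster and act towards the head; high-numbered groups lie at the 5′ end and act towards the tail and the tips of the limbs. Cultured fibroblasts are known to keep a Hox pattern that reflects the part of the body they were taken from.

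A probe was counted as detected at a detection p under 0.01, that is, when fewer than 1 in 100 negative-control beads were as bright, on at least 1 array. By this limit 22 of 38 Hox genes (57.9%) were detected, beside 52.1% of all named genes, and 24 of 50 Hox probes (48.0%), beside 48.8% of all named probes. All 24 probes were detected on both arrays and none on 1 array only. Over all genes, 452 of the 8651 detected (5.22%) were detected on 1 array only. With 22 genes, a share of this size leaves room for few such genes, so their absence is not read as a Hox trait. At this limit the set of detected Hox genes was identical on the control and the exposed array. At other limits it was not. Under 0.05, Hoxc13 was detected in control alone (detection p 0.0138 and 0.0677). At a detection p of 0, Hoxd4 was detected in exposed cells alone (0.00125 in control). On both arrays 13 of the 22 detected genes had a probe brighter than every negative control (a detection p of 0).

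Detected genes came from all 4 clusters. They were 7 of 9 genes with a probe in the D cluster, 6 of 10 in the A cluster, 6 of 10 in the B cluster and 3 of 9 in the C cluster. By paralogue group, both members of group 2 (Hoxa2 and Hoxb2), both of group 7 (Hoxa7 and Hoxb7) and all 4 of group 9 (Hoxa9, Hoxb9, Hoxc9 and Hoxd9) were detected. Partly detected groups were group 3 (Hoxd3 of 3 genes), group 4 (Hoxa4, Hoxb4 and Hoxd4 of 4), group 5 (Hoxa5 and Hoxb5 of 3), group 6 (Hoxb6 and Hoxc6 of 3), group 8 (Hoxd8 of 3), group 10 (Hoxc10 and Hoxd10 of 3), group 12 (Hoxd12 of 2) and group 13 (Hoxa13 and Hoxd13 of 4). None of the measured genes of group 1 (Hoxb1 and Hoxd1) and group 11 (Hoxa11, Hoxc11 and Hoxd11) was detected. At this limit detection thus ran from group 2 to group 13, with a gap at group 11 that covered all 3 of its genes. Hoxd12, Hoxa13 and Hoxd13 were no longer counted at a detection p of 0, where detection ended at group 10. The posterior reach and the gap therefore depend on the limit.

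**Figure D1:**
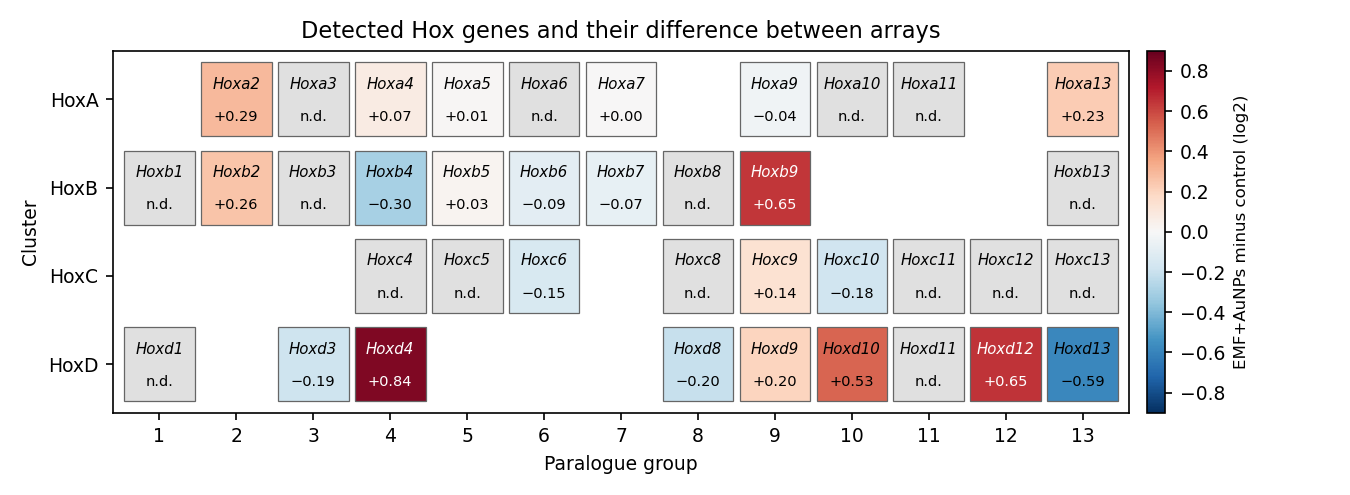
Detected Hox genes by cluster (rows) and paralogue group (columns), coloured by the log2 difference of EMF+AuNPs minus control on 1 array each. Grey cells marked n.d. were detected on neither array and the 22 coloured cells run from -0.59 for Hoxd13 to 0.84 for Hoxd4.

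The 16 genes below the limit were Hoxa3, Hoxa6, Hoxa10, Hoxa11, Hoxb1, Hoxb3, Hoxb8, Hoxb13, Hoxc4, Hoxc5, Hoxc8, Hoxc11, Hoxc12, Hoxc13, Hoxd1 and Hoxd11. With the undetected further probes of 2 detected genes, Hoxa9 and Hoxa13, they account for 26 probes. Their intensities lay between 90.3 and 179 on the control array and between 90.9 and 151 on the exposed array, below the lowest detected intensities of 187 and 181. The member just outside the limit was Hoxc13, a posterior gene known for its role in hair and nails, with an intensity of 179 and a detection p of 0.0138 in control and 149 and 0.0677 in exposed cells. Just inside it lay Hoxa9, with 201 and 0.00376 in control and 191 and 0.00501 in exposed cells. A gene not detected here may still be transcribed, since its probe shows only that no signal above the negative controls was measured.

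Probes of one gene did not always give the same call. Of the 9 Hox genes with several probes, both probes of Hoxa2 and both of Hoxc10 were detected, while 1 of 3 was detected for Hoxa9 and for Hoxa13. The other Hoxa13 probes read 111 and 130 in control, detection p 0.456 and 0.169, so its detection rests on a single probe that read 310. No probe was detected for Hoxa3, Hoxa10, Hoxb1, Hoxb3 or Hoxc11, which have at least 2 probes each. The remaining 29 genes have 1 probe each, and nothing on the arrays checks their calls.

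Differences between the arrays are given on a log2 scale after background correction and quantile normalization with the neqc function, as exposed minus control, for the brightest detected probe of each gene. As a yardstick, each was set beside the robust SD of the differences of all detected genes of like brightness, which ran from 0.17 to 0.42 for the Hox genes and holds real change as well as noise. The median difference of the 22 Hox genes was 0.02, beside 0.03 for all 8651 detected genes, with 13 genes above 0 and 9 below. The median size of the difference was 0.19 for Hox genes and 0.16 for all genes. At a limit of 1.5-fold, 4 of 22 Hox genes (18.2%) passed, beside 6.25% of all detected genes, and none passed 2-fold, beside 1.01%. The share of all genes depends on brightness. In the bins of like brightness that hold these 4 genes, 14.8% of 1731 genes passed 1.5-fold, and 11 of the detected Hox genes lay there. These bins were picked by where the passing Hox genes lay. Past 1 robust SD of like brightness lay 8 Hox genes (36.4%), beside 33.2% of all genes detected on both arrays, and past 2 robust SDs lay 2 Hox genes, beside 7.98%.

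**Figure D2:**
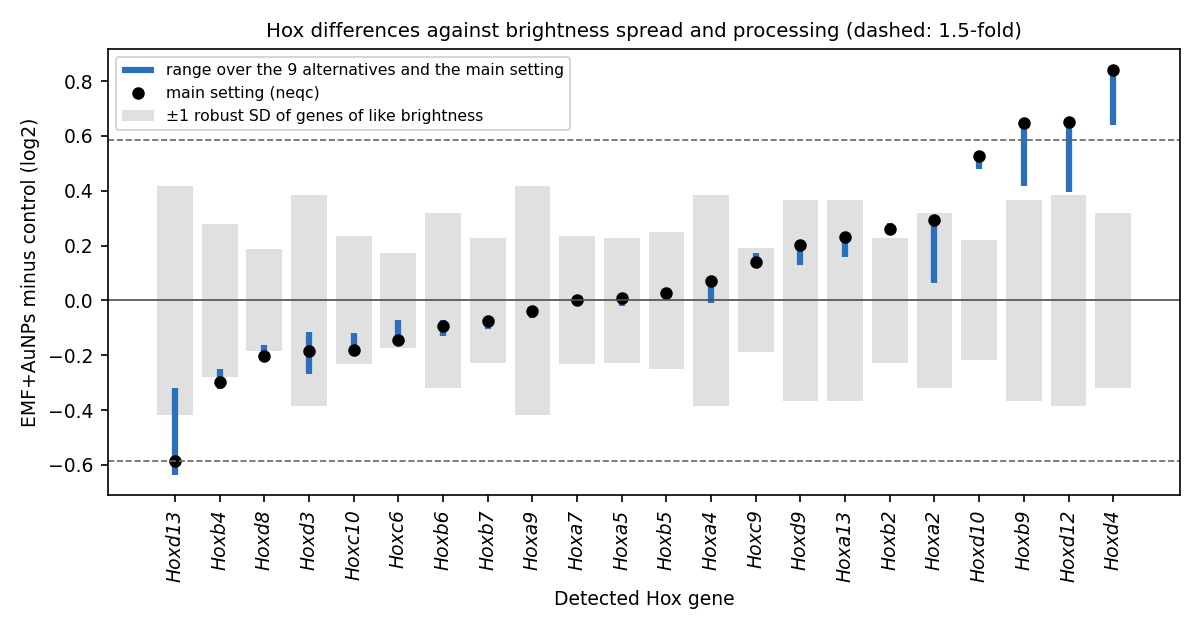
Log2 difference of EMF+AuNPs minus control for each of the 22 detected Hox genes (points, 1 array a condition), with 1 robust SD of genes of like brightness on either side of 0 (grey bars) and the range over the processing settings (blue lines). Of the 4 genes past 1.5-fold in the setting used, Hoxd4 alone keeps its whole range past the dashed line; most genes lie inside the grey bars.

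The 3 genes past 1.5-fold upwards, beside 3.34% of all genes, were Hoxd4, Hoxd12 and Hoxb9. Hoxd4, which helps to pattern the hindbrain and neck vertebrae, read 346 in control and 503 in exposed cells. The log2 difference was 0.84, or 1.79-fold, and 2.64 times the robust SD of genes of like brightness. It was the largest Hox difference in both of these measures, and it was 0.64 without background correction. Hoxd12, a gene of the distal limb, read 227 in control and 282 in exposed cells, a log2 difference of 0.65. Hoxb9, a posterior gene of the trunk that acts on the rib cage, read 251 and 314, also a difference of 0.65. Both readings lie close to the detection limit, and without background correction the differences were 0.39 for Hoxd12 and 0.42 for Hoxb9, below 1.5-fold.

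Only Hoxd13 passed 1.5-fold downwards, beside 2.91% of all genes. Hoxd13, which shapes the digits, read 251 in control and 192 in exposed cells, a log2 difference of -0.59 that lies at the limit itself. Its difference was -0.32 without background correction. Hoxd12 and Hoxd13, which lie next to each other at the 5′ end of the D cluster, thus went opposite ways by similar amounts, both within 2 robust SDs. Hoxd10, another gene of the posterior D cluster, read 929 in control and 1238 in exposed cells. Its difference of 0.53, or 1.44-fold, stayed under the limit but was 2.41 times the robust SD at its brightness, and it was 0.48 without background correction.

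**Figure D3:**
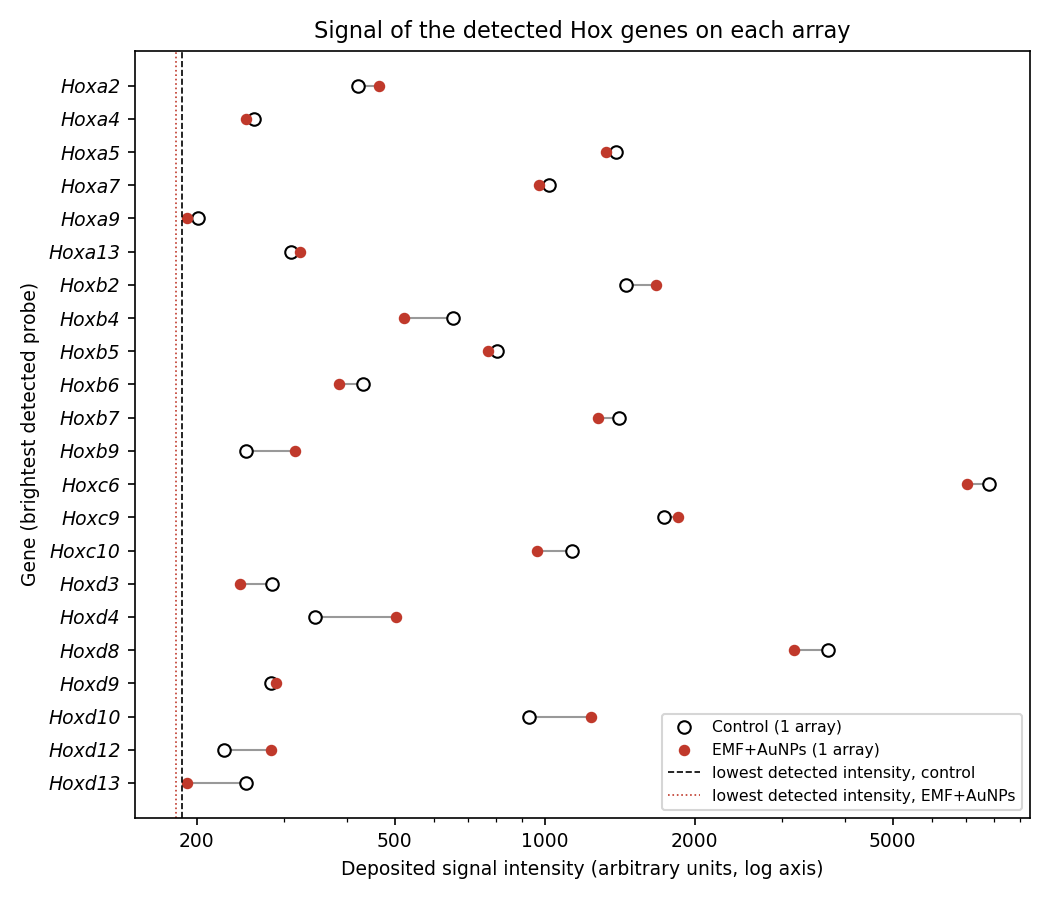
Deposited signal intensity (log axis) of the brightest detected probe of each of the 22 Hox genes in control (open circles) and with EMF+AuNPs (filled circles), 1 array each, with the lowest detected intensity of each array as a vertical line (187 and 181). The longest gap is that of Hoxd4, from 346 to 503; Hoxa9 and Hoxd13 lie next to the lines, and a distance between 2 genes is not a difference in expression, since each probe has its own response.

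To show the regulatory sequence of the members that differed most against a close relative, the start regions of Hoxd4 and its paralogue Hoxb4, and of the neighbours Hoxd12 and Hoxd13, are printed from RefSeq (GRCm38.p6). Each runs 5′ to 3′ on the plus strand, from 250 bases before to 50 after the annotated start. Capitals mark matches on either strand to TATAAA, the TATA box, or CCAAT, the CCAAT box. The same windows were searched for TGATNNAT, a composite site of Hox and Pbx proteins, and TAATTA, a homeodomain core, and hold neither. The regions are chr2:74721728-74722027 for Hoxd4, chr11:96318017-96318316 for Hoxb4, chr2:74674763-74675062 for Hoxd12 and chr2:74667975-74668274 for Hoxd13.
Hoxd4: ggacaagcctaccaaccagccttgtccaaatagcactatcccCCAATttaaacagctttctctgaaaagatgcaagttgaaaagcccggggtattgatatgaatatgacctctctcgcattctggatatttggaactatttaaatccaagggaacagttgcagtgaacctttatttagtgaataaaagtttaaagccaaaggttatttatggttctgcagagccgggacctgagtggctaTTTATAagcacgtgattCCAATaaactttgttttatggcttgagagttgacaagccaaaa
Hoxb4: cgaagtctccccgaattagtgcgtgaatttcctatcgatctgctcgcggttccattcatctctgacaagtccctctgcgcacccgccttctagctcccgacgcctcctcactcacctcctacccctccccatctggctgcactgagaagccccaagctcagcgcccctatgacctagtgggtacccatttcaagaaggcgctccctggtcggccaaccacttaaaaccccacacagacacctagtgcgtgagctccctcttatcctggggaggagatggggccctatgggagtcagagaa
Hoxd12: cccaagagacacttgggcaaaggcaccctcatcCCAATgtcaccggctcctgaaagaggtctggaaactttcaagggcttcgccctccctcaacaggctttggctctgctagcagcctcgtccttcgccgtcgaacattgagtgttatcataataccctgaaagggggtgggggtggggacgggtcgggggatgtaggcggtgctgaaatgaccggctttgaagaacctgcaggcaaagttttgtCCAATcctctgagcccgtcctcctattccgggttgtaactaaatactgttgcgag
Hoxd13: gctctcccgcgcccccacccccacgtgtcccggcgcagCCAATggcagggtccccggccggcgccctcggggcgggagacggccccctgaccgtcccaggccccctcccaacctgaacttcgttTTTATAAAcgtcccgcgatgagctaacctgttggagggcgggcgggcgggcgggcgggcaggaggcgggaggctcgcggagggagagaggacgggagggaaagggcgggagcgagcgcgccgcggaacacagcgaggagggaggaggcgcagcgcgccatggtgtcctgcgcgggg

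The Hoxd4 window holds 1 TATAAA match and 2 CCAAT matches, with 4 CpG sites and 39.7% G or C. That of Hoxb4 holds no match and has 14 CpG sites. The Hoxd12 window holds 2 CCAAT matches and 13 CpG sites. That of Hoxd13 holds 2 overlapping TATAAA matches and 1 CCAAT match, with 37 CpG sites and 74.3% G or C. Such a match is a description of the letters and not a site shown to be used, and none of these features was measured on the arrays.

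RefSeq start windows were at hand for 22 of the 38 Hox genes, 13 of them detected. The detected genes' windows had a median of 14 CpG sites, from 4 to 45, and those of undetected genes 15, from 4 to 29, beside 7 over all 32851 windows of the table. CCAAT was present in 9 of 13 windows of detected genes (69.2%), in 6 of 11 of undetected genes (54.5%) and in 37.4% of all windows. TATAAA was found in 2 of 13, 2 of 11 and 13.6% of these. TGATNNAT stood in 1 of 13 windows of detected genes (Hoxa2) and 3 of 11 of undetected genes, beside 8.85% of all windows, and TAATTA in none of 13 and 2 of 11, beside 5.29%. The CpG content was thus alike in windows of detected and undetected members and above the median of the table in both.

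Among the anterior genes of groups 2 to 4, detected members lay on both sides of 0. Hoxb2, which patterns hindbrain and neural crest, read 1459 in control and 1670 in exposed cells, a difference of 0.26. Its paralogue Hoxa2, the selector gene of the second pharyngeal arch, had 421 and 465 on its brightest probe, a difference of 0.29. The second Hoxa2 probe went the other way, from 311 to 270, a difference of -0.17, so the direction of Hoxa2 depends on the probe.

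Hoxd3, which acts in the neck vertebrae, read 283 in control and 244 in exposed cells, a difference of -0.19. Hoxa4 read 260 and 251, a difference of 0.07. Hoxb4, also known as a factor of blood stem cells, read 655 and 521, a difference of -0.30. Within group 4 the 3 detected paralogues thus ranged from -0.30 for Hoxb4 to 0.84 for Hoxd4, and the value of Hoxa4 lay within its robust SD of 0.38.

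The central genes of groups 5 to 8, which pattern the thorax and the forelimb level, differed least. Hoxa5, which acts in lung and shoulder, read 1391 in control and 1329 in exposed cells, a difference of 0.01. Hoxb5 read 801 and 770, a difference of 0.03. Hoxa7 read 1019 and 973, a difference of 0.00. In these 3 genes the intensity was slightly lower on the exposed array and the normalized values were nearly equal.

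Hoxb6 read 431 in control and 387 in exposed cells, a difference of -0.09. Hoxb7 read 1411 and 1278, a difference of -0.07. Both lay within 1 robust SD. Hoxc6, a gene of the thoracic level and the forelimb, read 7805 and 7051, a difference of -0.15. Hoxd8 read 3714 and 3163, a difference of -0.20, which was 1.10 times the robust SD of 0.19 at its brightness. All 7 detected central genes lay between -0.20 and 0.03, with 3 above 0 and 4 below, whereas the 6 anterior genes ran from -0.30 to 0.84 and the 9 posterior genes from -0.59 to 0.65. Brightness moves with this contrast: the robust SD at the members' brightness ran from 0.17 to 0.32 for the central genes, from 0.23 to 0.38 for the anterior and from 0.19 to 0.42 for the posterior ones. Its part in the narrower range was not tested.

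Of the posterior genes, group 9 was the only group with 4 detected paralogues. Hoxc9, a gene of the posterior thorax, read 1736 in control and 1848 in exposed cells, a difference of 0.14. Hoxd9 read 282 and 289, a difference of 0.20, and Hoxa9, which also acts in blood progenitors, differed by -0.04. With Hoxb9 at 0.65, 3 of the 4 lay above 0, and all but Hoxb9 lay within 1 robust SD.

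Hoxc10, a gene of the lumbar level and the hindlimb, read 1136 in control and 965 in exposed cells on its brightest probe, a difference of -0.18. Its second probe read 662 and 605, a difference of -0.06, in the same direction. The group 10 paralogue Hoxd10 differed by 0.53, as given above. Hoxa13, a gene of the digits and the genital tract, read 310 and 323, a difference of 0.23, within its robust SD of 0.37. Its paralogue Hoxd13 had the opposite sign, so both detected pairs of groups 10 and 13 held 1 higher and 1 lower gene.

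By cluster, the median difference was 0.04 over the 6 detected genes of the A cluster, -0.02 over the 6 of the B cluster, -0.15 over the 3 of the C cluster and 0.20 over the 7 of the D cluster. The D cluster held 3 of the 4 genes past 1.5-fold, and its genes in descending order of group number differed by -0.59 (Hoxd13), 0.65 (Hoxd12), 0.53 (Hoxd10), 0.20 (Hoxd9), -0.20 (Hoxd8), 0.84 (Hoxd4) and -0.19 (Hoxd3). The sign thus changed repeatedly along the cluster, also between direct neighbours. With 1 array a condition, differences between clusters could not be tested.

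Hox proteins bind DNA together with cofactors of the TALE class, the Pbx, Meis and Pknox proteins; the list used also holds the related repressors Tgif1 and Tgif2. All 9 TALE genes with a probe were detected, beside 52.1% of all genes, and 1 passed 1.5-fold, beside 6.25%. Pbx3 read 361 in control and 213 in exposed cells, a difference of -1.08, or 2.12-fold lower. Its second detected probe read 335 and 218, a difference of -0.85. The third Pbx3 probe was not detected, and without background correction the 2 differences were -0.69 and -0.53.

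Meis2 read 4752 in control and 3370 in exposed cells, a difference of -0.48 against a robust SD of 0.17. Meis1 read 5792 and 6114, a difference of 0.10. The brightest probe of Pknox1 differed by 0.56 and the other one by -0.04. For Tgif1 the brightest probe differed by -0.25 and the others by -0.99 and -0.85. The brightest detected probes of Pbx2, Meis3 and Pknox2 differed by 0.10, -0.08 and -0.05. The other detected probes of Pbx2 differed by -0.40 and 0.19, and that of Meis3 by -0.48. Tgif2 was detected in exposed cells alone, with readings of 185 and 192 on either side of the detection limit. The list had 4 members above 0 and 5 below, and a median of -0.05.

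Polycomb proteins keep Hox genes silent outside their domains, and trithorax proteins, among them the MLL methyltransferases, keep them active. Of 18 Polycomb genes with a probe, 13 were detected, beside 52.1% of all genes, and none passed 1.5-fold, beside 6.25%, with a median of -0.09. The largest differences were those of Bmi1 (-0.52), Rnf2 (-0.33), Ring1 (0.26) and Phc2 (0.26), all of them subunits of the PRC1 complex. Ezh2, the methyltransferase of the PRC2 complex, differed by 0.15; it was chosen as an example after its value was seen. All 11 trithorax and MLL genes with a probe were detected and none passed 1.5-fold, with a median of 0.01. Their largest differences were those of Mllt3 (-0.33), Men1 (-0.20), Kmt2b (-0.19) and Dpy30 (0.14).

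Retinoic acid is known to switch on anterior Hox genes in the embryo. Of 16 genes of its synthesis, breakdown and reception, 9 were detected, 1 passed 1.5-fold higher and 1 lower, and the median was -0.05. Of all genes 52.1% were detected, and of these 3.34% passed higher and 2.91% lower. Cyp26b1, which breaks retinoic acid down, read 231 in control and 312 in exposed cells, a difference of 0.83, or 0.52 without background correction. Aldh1a2, which makes it, was detected in control alone, with 240 in control and 181 in exposed cells, so its difference is a bound, of -0.64 on the background-corrected scale. Without background correction the bound was -0.33, below 1.5-fold. Aldh1a1 was likewise detected in control alone, with 231 and 181 and a bound of -0.55, or -0.28 without background correction. Crabp1, a carrier of retinoic acid, differed by 0.35. The receptor gene Rarb, itself a known target of retinoic acid, was detected on neither array.

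**Figure D4:**
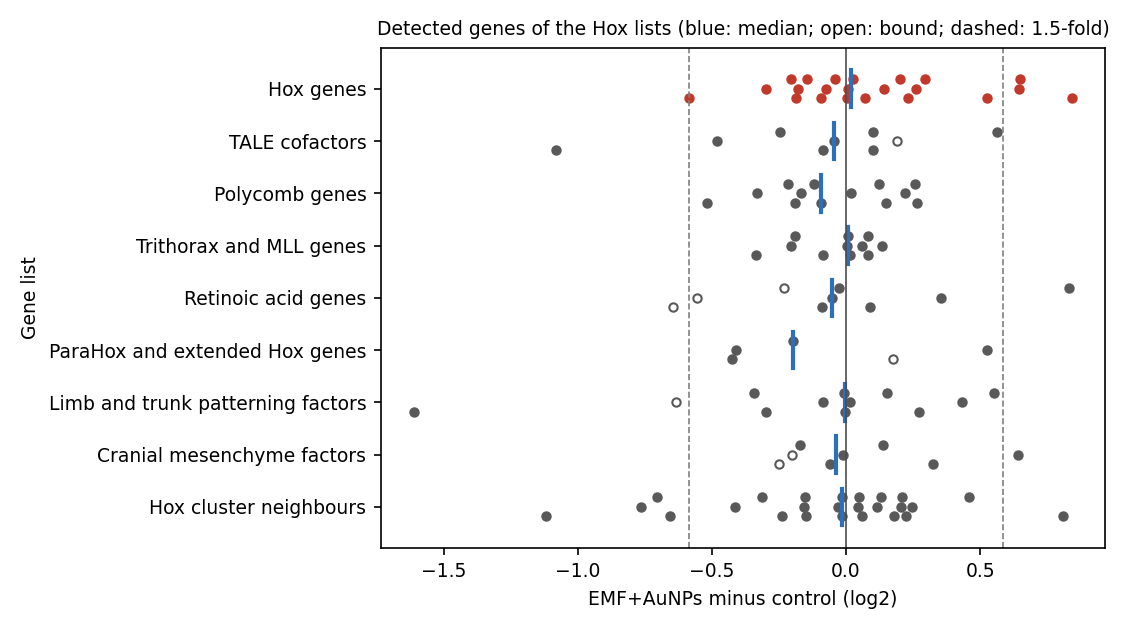
Log2 difference of EMF+AuNPs minus control for the detected genes of the Hox list and of 8 related lists (points, 1 array a condition; open points are bounds for genes detected on 1 array; blue lines are medians). The list medians lie between -0.20 and 0.02, and the points farthest out are Grem1 (-1.61), Nfe2l2 (-1.12) and Pbx3 (-1.08).

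Lists of other factors that mark position were read beside the same shares of all genes, 52.1% detected, 3.34% past 1.5-fold higher and 2.91% lower. Of 28 limb and trunk patterning genes with a probe, 12 were detected, with a median of 0.00, and 2 passed 1.5-fold lower. The limb-type factors Tbx4, Tbx5 and Pitx1 and the dorsal limb factor Lmx1b were detected on neither array. Grem1, a BMP antagonist of the limb bud, read 1124 in control and 412 in exposed cells, a difference of -1.61. Tbx2 was detected in control alone, with 239 and 177 and a bound of -0.64, or -0.33 without background correction, which is below 1.5-fold. Shox2, a factor of the proximal limb, differed by 0.55 and Lhx9 by 0.43.

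Of 21 factors of the cranial mesenchyme, which in the face forms from cells without Hox expression, 8 were detected, with a median of -0.04. Dlx1, Dlx2, Dlx3, Dlx4, Dlx5, Alx1, Alx4 and Otx2 were detected on neither array. Gsc passed 1.5-fold at 0.64, with readings of 288 and 370, and differed by 0.45 without background correction. Tfap2a differed by 0.33, and Lhx8 and Foxd1 were detected in control alone, with bounds of -0.25 and -0.20, or -0.12 and -0.10 without background correction. Of 15 ParaHox and extended Hox genes, the closest relatives of the Hox genes, 5 were detected and none passed 1.5-fold. They were Meox1 (-0.42), Meox2 (-0.41), En1 (-0.20), Gbx2 (0.52) and Cdx1, which was detected in exposed cells alone (a bound of 0.17, or 0.08 without background correction).

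The genes that flank the Hox clusters were read as a contrast within the same chromosome regions. The 5 nearest coding genes on each side of each cluster gave 37 genes with a probe. Of these, 25 (67.6%) were detected, all of them on both arrays, beside 52.1% of all genes detected on at least 1 array. Their median difference was -0.01, with 1 past 1.5-fold higher, beside 3.34% of all genes, and 4 lower, beside 2.91%. These were Cbx5 (0.81), a heterochromatin protein gene beside the C cluster, Nfe2l2 (-1.12), the gene of the antioxidant factor NRF2 beside the D cluster, Hnrnpa2b1 (-0.76) beside the A cluster, and Smug1 (-0.70) and Hnrnpa1 (-0.66) beside the C cluster. A second probe of Hnrnpa2b1 differed by 0.59, in the other direction, and a second probe of Hnrnpa1 by 0.06. Evx1 and Evx2, the homeobox genes at the 5′ ends of the A and D clusters, were detected on neither array.

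The label fibroblast was set beside marker genes. The detection counts below stand beside 52.1% of all named genes detected on at least 1 array. All 17 fibroblast markers with a probe were detected on both arrays, and the summed intensity of their brightest probes was 318041 in control and 290947 in exposed cells. Of 12 macrophage and leukocyte markers, 11 were also detected, and the sums over all 12 were 150140 and 159804. Itgam was not detected, and Ptprc was detected in control alone (intensity 227). Lyz2, Laptm5 and Fcer1g, genes of macrophages, read 46631, 43796 and 31786 in control and 42568, 45724 and 38676 in exposed cells. Of this list 2 genes passed 1.5-fold higher, beside 3.34% of all genes. They were Cd52 (0.80) and Coro1a (0.80), both 0.78 without background correction, and all 4 probes of Coro1a were higher in exposed cells. Blood progenitors are known to express Hoxa9 and Hoxb4, and the part of leukocytes in any Hox signal was not tested. Of 8 endothelial markers 3 were detected, among them not Pecam1 or Cdh5, and of 6 epithelial markers 2 were, without Cdh1. Of 10 skeletal muscle markers 6 were detected, without Myod1 and Myog, and the sums over all 10, undetected ones included, were 5755 and 6796. Past 1.5-fold higher were 4 of them, beside 3.34% of all genes, namely Mylpf (0.86), Tnnt1 (0.64), Tnnc1 (0.63) and Myl1 (0.60). Without background correction Mylpf alone passed (0.60), with 0.50 for Tnnt1, 0.52 for Tnnc1 and 0.57 for Myl1. Of 7 neuronal and Schwann markers only Map2 was detected.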

How the data were processed

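Expression was measured in 1 control sample and 1 sample with EMF and AuNPs (exposed). Biotin-labelled cRNA was made from Trizol-extracted total RNA, per the labels' protocols; the submitters' processing notes name GenomeStudio 2011.1. For 25697 probes the authors deposited a linear signal intensity that was not normalized between arrays and a detection p-value, so named in the column headers. The step of these p-values, 1 in 798, was read from the values. The authors also deposited log2 values, which equalled the quantile normalized log2 intensities without background correction to 6 decimals; both columns have a median of 7.35. Other upstream steps are not given in the sources used here. Columns were assigned by sample description.

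Gene symbols came from the platform annotation, which names 1 gene for 23978 probes, several for 0 and none for 1719. All 38 Hox symbols matched RefSeq (GRCm38.p6) by Entrez number. No build is named with the arrays, so only the printed RefSeq sequences carry coordinates.

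Intensities were processed with neqc of limma 3.58.1 in R 4.3.3 (offset 16). The steps were also run on simulated arrays whose known changes lay only on bright probes with a detection p of 0 in control. The Hox genes past 1.5-fold all had a control detection p above 0, so that run does not cover changes at their brightness. A gene was represented by its brightest probe detected on at least 1 array. For a gene detected on 1 array the difference is a bound, for which the dim side is set to its own value or to that array's lowest detected value, whichever is higher. The robust SD is 1.4826 times the median absolute deviation in 20 equal bins of brightness. The number of arrays limits the precision, and no value has a test. The members and lists were chosen with earlier results of these data known. Named genes are every Hox gene, all detected TALE genes and the 4 detected members with the largest difference of each Hox-related list; undetected and marker genes are named as examples, chosen after their values were seen. The median intensity was 165 and 162 on the 2 arrays. The neighbour list could hold 3 genes more, which have no named probe. None of the 15 noncoding RNAs listed for the Hox clusters has a named probe, and they were not analysed here.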

Additional observations from a re-analysis of the deposited data

How the results depend on the processing

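The limits of these values are the single array per condition and the small distance of many Hox signals from the negative controls. The number of detected Hox genes was 23 at a detection p under 0.05, where Hoxc13 joined, and 14 at a detection p of 0. The count of 4 Hox genes past 1.5-fold stayed at 4 with the limit of 0.05, with the mean over probes and with cyclic loess, was 3 with median centring (Hoxb9 then differed by 0.58), and was 1, Hoxd4, at a detection p of 0, with normexp and an offset of 50, without background correction, with a neqc offset of 50 and in the deposited log2 values. At a detection p of 0 the other 3 genes are no longer counted; for the rest, a larger offset or no subtraction shrinks the differences of dim probes by construction. Over all genes, 541 passed 1.5-fold, against 285 at a detection p of 0, 305 with normexp 383 with a neqc offset of 50 and 257 without background correction; the count was 691 at a detection p under 0.05, 556 with the mean over probes, 528 with median centring and 520 with cyclic loess. The deposited values gave the same results as no background correction, being the same numbers. The median of the Hox genes ran from -0.01 with cyclic loess to 0.02. Of the 22 genes, 19 kept their sign in the 9 alternatives where they could be scored. Hoxa4 was -0.01 with median centring, and Hoxa5 and Hoxa7 were -0.02 and -0.01 with cyclic loess. Only median centring, cyclic loess and the mean over probes could change a sign. The other alternatives keep the order of probes within each array before quantile normalization, or keep the values themselves, so their signs were fixed beforehand. The count of 19 is therefore no measure of how firm the signs are. No paired analysis was possible because each condition has 1 array.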
